A study of Mus musculus with 2 samples.

Results

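The smooth muscle actins, their contractile partners and the tropomyosins were followed in the mouse lens at postnatal day 60 (P60) and postnatal day 7 (P7). The set holds 10 genes of the 18194 named on the array: the actins Acta2 and Actg2, the actin-binding proteins Tagln and Cnn1, the myosin chains Myl9 and Myh11, and the tropomyosins Tpm1, Tpm2, Tpm3 and Tpm4. Its members are all 23 probe sets (sets of short probes designed against a transcript) that the platform annotation assigns to 1 of these symbols alone. The genes were picked by family with the age ratios of these arrays already known, so their values describe the 2 arrays and support no further statement. RNA of wild-type C57/BL6 lenses was pooled by age and put on 1 array for P60 and 1 for P7. How many animals or eyes a pool held, and their sex, is not stated in the labels. No value therefore has a replicate, a standard deviation or a p-value.

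Actin filaments carry tropomyosin along their length, and the tropomyosin isoform affects which myosins and filament-binding proteins can act on that filament. The smooth muscle set of genes, which serum response factor (SRF) and its cofactors switch on, gives vessel walls, gut and the muscles of the iris and ciliary body their contractile filaments. Acta2, smooth muscle α-actin, is also made outside muscle, by myofibroblasts, by pericytes and, in injured or cataractous lenses, by lens epithelial cells that turn mesenchymal. Lens fibre cells have no contractile apparatus of this kind, but their membrane skeleton holds short actin filaments bound by tropomyosin and capped by tropomodulin.

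SRF binds a sequence called the CArG box, and the TEAD factors bind the MCAT motif, CATTCC on either strand. RefSeq promoter windows (build GRCm38.p6), running from 250 bases before to 50 after an annotated start, matched 7 of the 10 genes in 8 windows. Those of Acta2 and Tpm1, the genes 2-fold higher at P60, and of Myl9, which holds the exact CArG box, are shown 5′ to 3′. Capitals mark CArG boxes (CC, then 6 bases that are each A or T, then GG), CArG-like matches in which 1 of these 6 is C or G, and MCAT motifs. The windows lie at chr19:34255324-34255623 on the minus strand (Acta2), chr9:67049164-67049463 on the minus strand (Tpm1) and chr2:156775214-156775513 on the plus strand (Myl9).
Acta2: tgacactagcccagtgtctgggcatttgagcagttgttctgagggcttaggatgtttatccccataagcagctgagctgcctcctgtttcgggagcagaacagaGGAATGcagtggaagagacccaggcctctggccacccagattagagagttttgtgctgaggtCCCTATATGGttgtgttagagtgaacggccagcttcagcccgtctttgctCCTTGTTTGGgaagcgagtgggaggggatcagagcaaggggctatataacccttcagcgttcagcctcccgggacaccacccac
Tpm1: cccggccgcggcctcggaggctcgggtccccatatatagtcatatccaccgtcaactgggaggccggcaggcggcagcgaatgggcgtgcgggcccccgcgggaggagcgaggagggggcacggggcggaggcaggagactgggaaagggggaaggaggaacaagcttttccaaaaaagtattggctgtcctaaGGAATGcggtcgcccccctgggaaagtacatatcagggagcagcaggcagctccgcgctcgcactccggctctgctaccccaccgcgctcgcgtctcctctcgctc
Myl9: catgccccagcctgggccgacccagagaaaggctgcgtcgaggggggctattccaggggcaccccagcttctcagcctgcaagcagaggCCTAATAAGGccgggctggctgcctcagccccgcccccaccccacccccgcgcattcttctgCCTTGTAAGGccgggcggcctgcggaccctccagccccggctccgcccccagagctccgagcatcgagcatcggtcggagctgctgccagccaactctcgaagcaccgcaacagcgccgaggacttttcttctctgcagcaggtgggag

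The Acta2 window held 2 CArG-like matches, CCCTATATGG beginning 84 bases and CCTTGTTTGG beginning 34 bases before the annotated start, and an MCAT motif beginning 146 bases before it. Myl9 held the only exact CArG box of the 8 windows, CCTAATAAGG, beginning 161 bases before the start, and a CArG-like match, CCTTGTAAGG, at 99 bases. In the Tpm1 window only an MCAT motif was found, 56 bases before the start. Both Tpm3 windows held 1 CArG-like match each, CCATGTTAGG and CCTTTACTGG, and no match of any of the 3 kinds was found in the windows of Cnn1, Tpm2 and Tpm4. No 2 of the matches overlapped. Over all 32851 windows of the same length, 1.63% held a CArG box, 8.50% a CArG-like match and 14.7% an MCAT motif, and 0.679% held 2 or more CArG-like matches. These matches describe letters in a window and are not evidence of binding.

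The deposited values are MAS5 signal intensities on a linear scale. A floor was set at 103.9, the median over the pair of arrays. A probe set above it at either age counted as measured. Lower values were replaced by the floor for the log2 ratio of P60 over P7, and a fold that rests on such a value is written "at least". For each gene the brightest probe set was used in counts. As a guide to error, log2 ratios of a gene's own probe sets differed with an SD of 0.58, pooled over 4239 genes. That SD leaves out the differences between animals, pools and hybridisations. The median intensity was 93.9 at P60 and 112.9 at P7. The ratio of 5′ to 3′ signal of the beta-actin control probe sets was 0.606 at P60 and 0.785 at P7. For the Gapdh control probe sets it was 1.29 at P60 and 1.39 at P7, closer between the ages. Where a probe set's distance from the 3′ end sets its ratio, the ages could thus differ at equal RNA, and this was not tested for the genes described here. The lens fibre markers read far above the floor at both ages: the 8 of 9 markers named on the array summed to 413146 at P60 and 423787 at P7. All 8 were within 2-fold on their brightest probe sets, but the other measured probe set of Gja3 had a log2 ratio of -1.30.

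Of the 10 genes 7 were measured, and 2 of the 7 reached 2-fold higher at P60 and 0 reached 2-fold lower. The shares over all 13029 measured genes were 11.5% for 2-fold higher and 9.44% for 2-fold lower, and since the genes were picked with these ratios known, nothing is read from the comparison. The median log2 ratio of the 7 was 0.50, against 0.02 for all measured genes. By probe set, 16 of 23 were measured, 3 of them 2-fold higher and 3 lower, where 9.89% and 10.6% of the 22462 measured and named probe sets were. Of the 16 measured probe sets 7 had ratios above 0 and 9 below, and Tpm2 and Tpm3 supply 4 and 5 of the 16. The median by gene was 0.53 with the dimmest measured probe sets and 0.50 with the median of each gene's measured probe sets. The set did not move as a unit: Acta2 and Tpm1 were higher at P60, the Tpm3 probe sets all read lower, and Actg2, Cnn1 and Myh11 lay under the floor at both ages.

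**Figure D1:**
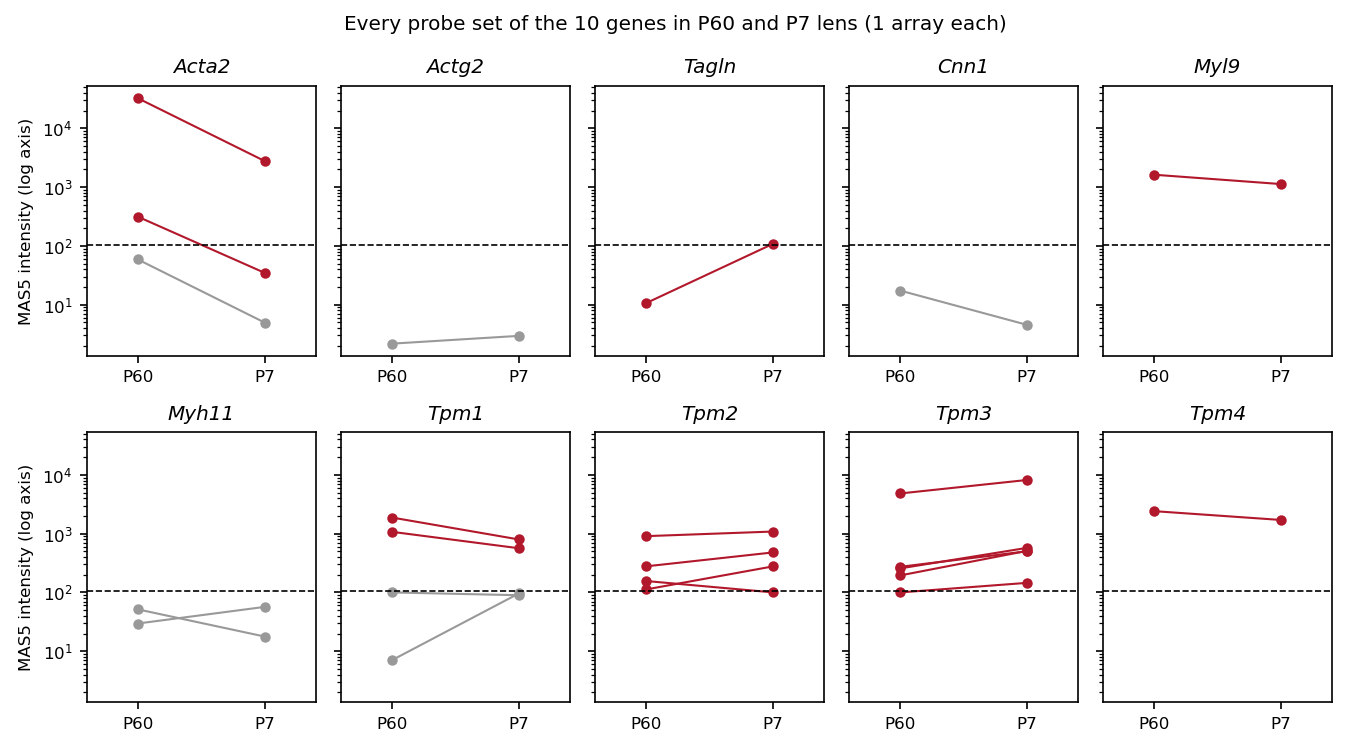
MAS5 intensity (log axis) of all 23 probe sets of the 10 genes in P60 lens (left) and P7 lens (right), 1 array each. Lines join the values of a probe set, grey marks probe sets under the floor of 103.9 (dashed) on both arrays, and the 3 Acta2 probe sets are the steepest group that reads higher at P60.

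Acta2 showed the largest ratio of the set. Its brightest probe set read 32524 in P60 lens, against 2764 in P7 lens, a log2 ratio of 3.56 or 11.8-fold higher at P60. That ratio was the 35th highest of the 13029 measured genes. The second probe set read 314 in P60 lens and 34.7, under the floor, in P7 lens, so it was at least 3.02-fold higher. The third lay under the floor at both ages, with 58.8 in P60 lens and 4.94 in P7 lens. All 3 thus read higher at P60, and without the floor their log2 ratios were 3.56, 3.18 and 3.57, although those of the dimmer pair rest on values under the floor.

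The suffix of the brightest Acta2 probe set marks probes that can also match transcripts of other genes, which for an actin means its close relatives. Actg2, the γ-actin of visceral smooth muscle, read 2.18 in P60 lens and 2.96 in P7 lens on its only probe set. The skeletal muscle actin Acta1 read 66.3 in P60 lens and 14.4 in P7 lens, and the cardiac actin Actc1 12.5 in P60 lens and 15.0 in P7 lens, all under the floor. The cytoplasmic actins were near the top of the scale and close to equal between the ages: Actb read 55677 in P60 lens and 50403 in P7 lens (log2 ratio 0.14, 5 probe sets from -0.41 to 0.17), and Actg1 31030 in P60 lens and 35045 in P7 lens (-0.18). Neither of these measured actins reached 2-fold. The share of other actin transcripts in the Acta2 signal was not tested. With probe sets of this kind left out, the Acta2 ratio rests on the second probe set alone, at a bound of 1.60.

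Of the 4 actin-binding and myosin genes only Myl9 had values well above the floor, so that for Tagln, Cnn1 and Myh11 little or no direction can be read. Tagln, or SM22, an early marker of smooth muscle that binds actin filaments, read 10.6 in P60 lens and 108.9 in P7 lens. The P7 value lies just above the floor, so that the gene was at least 1.05-fold lower at P60, and no size beyond that bound can be given. Cnn1, the smooth muscle calponin that restrains myosin on actin, was under the floor at both ages, with 17.4 in P60 lens and 4.54 in P7 lens. Myh11, the smooth muscle myosin heavy chain and the gene most restricted to mature smooth muscle, was under the floor on both of its probe sets. They read 51.5 and 29.6 in P60 lens, and 17.7 and 56.9 in P7 lens in the same order, and their directions differ.

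Myl9, a regulatory light chain shared by smooth muscle and non-muscle myosin II, read 1628 in P60 lens and 1128 in P7 lens, a log2 ratio of 0.53 or 1.44-fold higher, which is within the spread between probe sets of a gene. Its close relatives Myl12a and Myl12b, light chains of non-muscle myosin, had log2 ratios of -0.33 and 0.16, and a second probe set of Myl12a stood at 1.17.

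The 4 tropomyosin genes hold 14 of the 23 probe sets, 12 of them measured, and they differed in direction. Tpm1, which gives muscle and several cytoskeletal isoforms, read 1882 in P60 lens and 796 in P7 lens on its brightest probe set, 2.36-fold higher at P60. A second probe set read 1075 in P60 lens and 564 in P7 lens, 1.90-fold higher. Its other probe sets were under the floor at both ages: 1 read 100.1 in P60 lens and 89.7 in P7 lens, and the other 7.05 in P60 lens and 96.6 in P7 lens. Both measured Tpm1 probe sets were therefore higher at P60, by log2 ratios of 1.24 and 0.93, and the 2-fold limit falls between them.

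Tpm3, the gene of the cytoskeletal tropomyosins that include the form studied on lens fibre membranes, went the other way on every probe set. The brightest read 4826 in P60 lens and 8195 in P7 lens, 1.70-fold lower at P60 (log2 ratio -0.76). The next 3 read 256, 273 and 195 in P60 lens, against 574, 502 and 510 in P7 lens in the same order, and were 2.24-fold, 1.84-fold and 2.62-fold lower. The dimmest lay just under the floor in P60 lens, with 100.04, against 145.6 in P7 lens, at least 1.402-fold lower. All 5 probe sets were lower at P60, with log2 ratios from -1.39 to -0.49, although the brightest, which stands for the gene in the counts, did not reach 2-fold. On their brightest probe sets the log2 ratios of Tpm1 and Tpm3 lay 2.005 apart, and the signs of both held in each of the 9 settings described in the closing section.

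Tpm2, the β-tropomyosin of muscle and fibroblasts, had no single direction. Its brightest probe set read 907 in P60 lens and 1087 in P7 lens (log2 ratio -0.26). The second read 278 in P60 lens and 480 in P7 lens (-0.79), and the third, whose suffix marks probes that may match other transcripts, read 112.5 in P60 lens and 277.8 in P7 lens, 2.47-fold lower. The fourth read 156.5 in P60 lens and 100.3, under the floor, in P7 lens, at least 1.51-fold higher. Only this last probe set carries no suffix, so the sign for Tpm2 turns with the choice of probe set. Tpm4, a cytoskeletal tropomyosin of non-muscle cells, has 1 probe set, which read 2416 in P60 lens and 1710 in P7 lens, 1.41-fold higher (0.50). Alternative promoters and splicing give each tropomyosin gene many isoforms, and which of them a probe set reads is not given in the files.

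**Figure D2:**
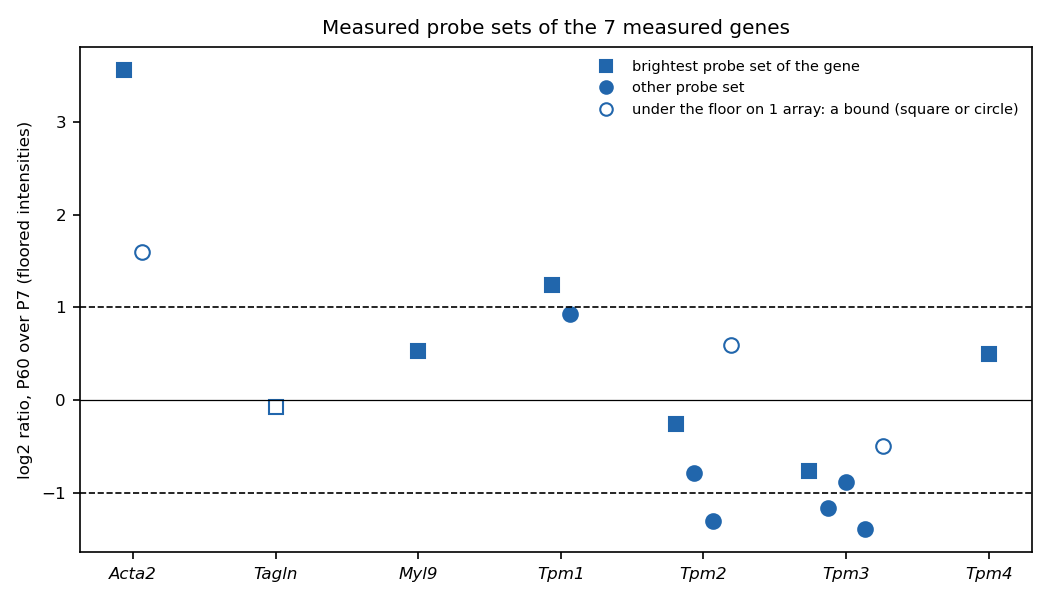
Log2 ratio of P60 over P7 for the 16 measured probe sets of the 7 measured genes, on floored intensities. Squares are the brightest probe set of each gene, circles the others, open symbols bounds, and dashed lines 2-fold; both Acta2 and both Tpm1 points lie above 0, the 5 Tpm3 points below it and the 4 Tpm2 points on both sides.

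Genes that act with this set were read from 7 lists chosen by function. Of SRF and its partners 14 of 15 were measured, with 1 past 2-fold on each side (median log2 ratio 0.27). Srf itself had a ratio of 0.89 (676 in P60 lens and 365 in P7 lens) and a second probe set at 1.51. Its actin-sensing cofactors Mrtfa and Mrtfb had ratios of 0.80 and 0.51. Myocd, the cofactor restricted to cardiac and smooth muscle, was under the floor at both ages, with 18.0 in P60 lens and 36.6 in P7 lens. At the ends of the list were Tead3 (1.13) and the TEAD coactivator Yap1 (0.95), and Fhl2 (-1.02), a partner of SRF, and Tead1 (-0.57).

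Among 20 other contractile genes of smooth muscle 13 were measured, 3 of them 2-fold higher and 3 lower (median 0.13). The LIM protein genes Csrp1 and Csrp2 were 4.16-fold and 2.10-fold higher, Csrp1 with its other probe set at -0.01. Hspb6, a small heat-shock protein of muscle, was 3.53-fold lower, and Pdlim7 2.77-fold lower with its 3 probe sets on both sides of 0. Several genes of the list that non-muscle cells also make were well above the floor and within or near 2-fold. Cald1, the actin-binding caldesmon, read 19790 in P60 lens and 14524 in P7 lens, the kinase gene Prkg1 read 7904 in P60 lens and 3780 in P7 lens (2.09-fold higher), and Mylk, myosin light chain kinase, read 842 in P60 lens and 959 in P7 lens. Of the 19 genes named on the array 6 were not measured on their brightest probe set, namely Smtn, Lmod1, Synpo2, Pdlim3, Ppp1r14a and Kcnmb1. Des, the muscle intermediate filament desmin, read 113.5 in P60 lens and 67.1 in P7 lens, near the floor.

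Of the 4 relatives of Cnn1 and Tagln 0 passed 2-fold. Cnn3, the calponin of non-muscle cells, read 45835 in P60 lens and 24164 in P7 lens, a ratio of 0.92 with 6 probe sets from -0.00 to 1.25. Tagln2 stood at 0.38, Cnn2 at -0.53, and the neuronal Tagln3, under the floor at P60, at -0.98 as a bound. Of 17 genes of non-muscle myosin II and its regulators 16 were measured, 2 higher and 1 lower by 2-fold (median 0.12). The heavy chain gene Myh14 was 6.51-fold higher (1291 in P60 lens, 198 in P7 lens), while Myh9 and Myh10 had ratios of 0.97 and 0.75, the probe sets of Myh9 reaching from -0.57 to 2.06. Ppp1r12c, a targeting subunit of myosin phosphatase, was 2.36-fold higher, the kinase gene Dapk3 2.13-fold lower and the light chain gene Myl6 1.96-fold lower.

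Of 10 genes that cap or nucleate filament ends 6 were measured, 0 higher and 1 lower by 2-fold (median -0.08). Tmod1, the tropomodulin of lens fibres, read 2810 in P60 lens and 2843 in P7 lens, a ratio of -0.02. Capzb (0.40) and Tmod3 (0.31) stood highest, and Tmod2, just past 2-fold lower, and Capza1 (-0.78) lowest. Of 19 genes of mesenchymal transition and TGF-β signalling, a setting in which lens epithelial cells are known to make Acta2, 15 were measured. In this list 3 passed 2-fold higher and 2 lower (median 0.33). The ligand gene Tgfb3 was at least 34.1-fold higher (3542 in P60 lens, 76.3 in P7 lens) and Ccn2, a matricellular target of SRF and YAP, 6.19-fold higher (5692 in P60 lens, 919 in P7 lens). Postn, a matrix protein gene, and Snai2, a transition factor, were at least 3.79-fold and 2.68-fold lower. Fn1, fibronectin, had a ratio of -0.37 and Vim, vimentin, of 0.54.

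**Figure D3:**
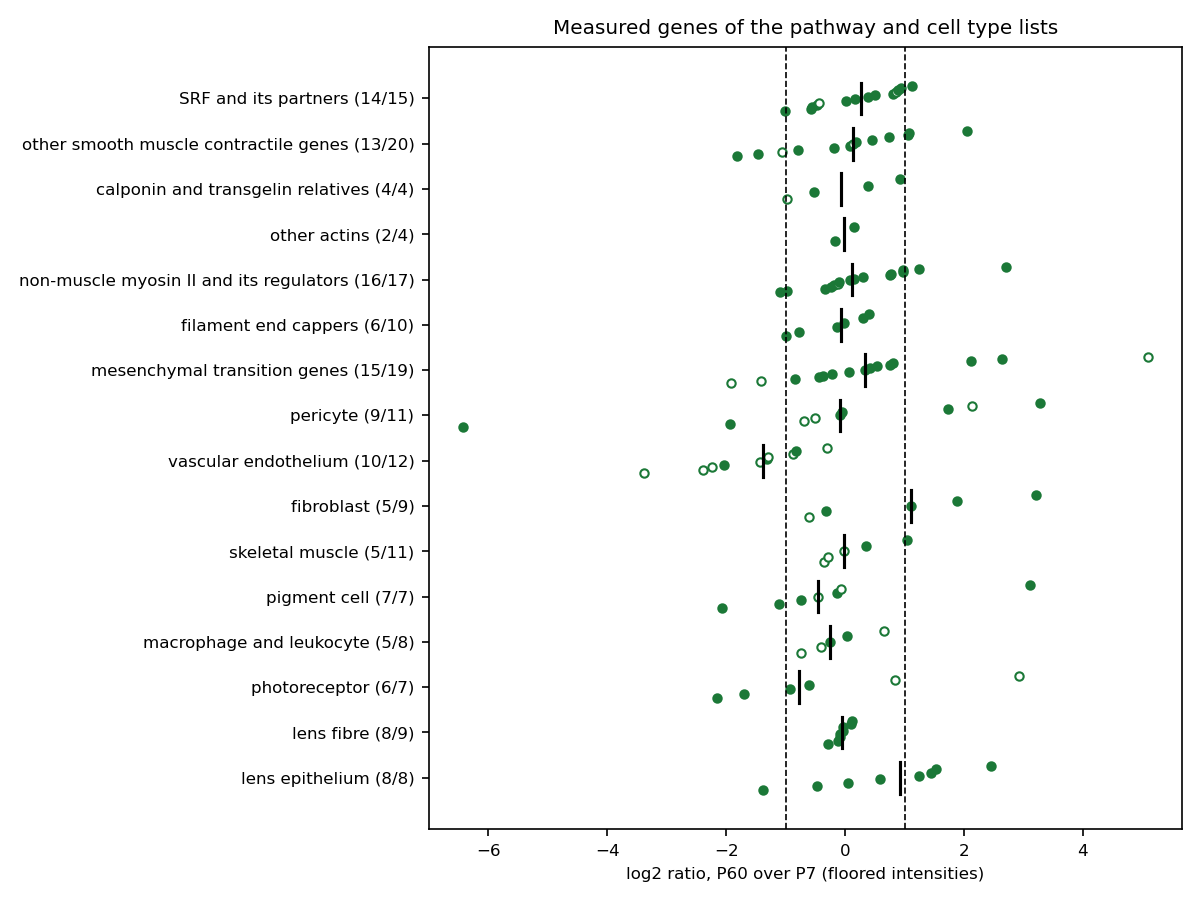
Log2 ratio of P60 over P7 for the measured genes of 7 pathway lists (top) and 9 cell type marker lists (below); the fraction after each name gives measured genes of all genes listed. Open symbols are bounds, black bars medians and dashed lines 2-fold; vascular endothelial genes all lie below 0 and 4 of the 8 lens epithelial genes lie beyond 2-fold on the higher side.

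Other cells that make these proteins could be held in a lens pool, and fewer cells of a type cannot be told apart from less RNA per cell. Of 11 pericyte markers, which mark cells of small vessels that often carry Acta2, 9 were measured, 3 of them 2-fold higher and 2 lower. The brightest probe sets of all 11 summed to 8115 at P60 and 11860 at P7. This sum and those below take each listed gene on the array, measured or not, at its reading without the floor. At P60, 4 of the 11 pericyte terms, 9 of the 12 endothelial terms and 5 of the 9 fibroblast terms were under the floor. At P7 these were 3, 2 and 4. Rgs5 was 85.9-fold lower (104.0 in P60 lens, 8935 in P7 lens), a fold that rests on a P60 value barely above the floor. Its 4 measured probe sets had log2 ratios from -6.43 to -2.19. Pdgfrb was 9.72-fold higher (5451 in P60 lens, 561 in P7 lens), and Cspg4 was under the floor at both ages (11.5 in P60 lens, 79.9 in P7 lens). Of 12 endothelial markers 10 were measured and 7 of these were at least 2-fold lower, with sums of 1173 at P60 and 4934 at P7. Pecam1 was under the floor at both ages (83.4 in P60 lens, 86.1 in P7 lens). Fibroblast markers were measured for 5 of 9 genes, 3 of them higher, with sums of 9551 at P60 and 3820 at P7. Col1a2 was 9.21-fold higher (1604 in P60 lens, 174 in P7 lens) and Fbln1 3.70-fold higher (1681 in P60 lens, 454 in P7 lens). Col1a1 was under the floor (86.8 in P60 lens, 13.1 in P7 lens), and Dcn, Lum and Dpt were under it at both ages as well.

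Of 11 skeletal muscle markers 5 were measured, 1 of them higher, with sums of 833 at P60 and 955 at P7, and Ckm was under the floor on its brightest probe set (92.9 in P60 lens, 89.5 in P7 lens). Pigment cell markers, which iris or ciliary tissue would bring, were all measured, 1 of 7 higher and 2 lower, with a median of -0.46. Their sums of 3540 at P60 and 2445 at P7 run against that median because of Oca2, a melanosomal transport protein gene, which read 2502 in P60 lens and 290 in P7 lens (8.62-fold higher). Without it the other 6 markers summed to 1038 at P60 and 2155 at P7. Their log2 ratios on the brightest probe sets were all below 0, from -2.07 to -0.08, but a second probe set of Slc45a2 stood at 0.83. Tyr read 51.2 in P60 lens and 143.2 in P7 lens. Of 8 macrophage markers 5 were measured and 0 passed 2-fold, with sums of 925 at P60 and 1117 at P7. Of 7 photoreceptor markers 6 were measured, 1 higher and 2 lower, with sums of 1951 at P60 and 2899 at P7. Lens epithelial markers, all 8 measured, were at least 2-fold higher in 4 and lower in 1 (median 0.92), with sums of 56147 at P60 and 25872 at P7. The 1 lower was Foxe3, 2.61-fold lower (110.5 in P60 lens, 288.2 in P7 lens), with a P60 value near the floor. The largest term of the epithelial sum was Gja1 (29700 in P60 lens, 12531 in P7 lens), whose 5 probe sets had log2 ratios from -0.37 to 2.72. That of the fibroblast sum was Pdgfra (5892 in P60 lens, 2732 in P7 lens). The epithelial and fibroblast sums were higher at P60 beside Acta2 and Tpm1, and the part of these cells in either ratio was not tested. Among the smooth muscle genes beside Acta2, Actg2, Cnn1, Myh11 and Myocd were under the floor on both arrays, and Tagln was above it at P7 only (108.9). Of the 19 other contractile genes named on the array 13 were measured, among them Hspb6 and Csrp1, above the floor at both ages. Myl9, Cald1 and Mylk, which non-muscle cells also make, were above the floor at both ages too. Which cells made any of these transcripts was not tested.

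**Figure D4:**
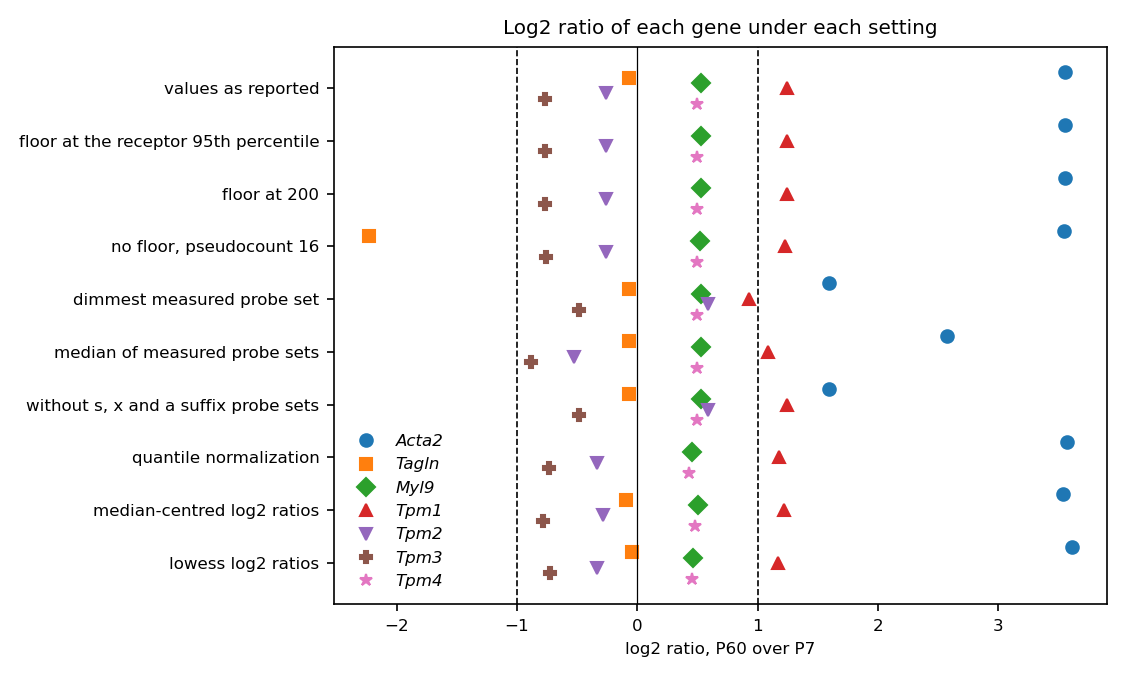
Log2 ratio of P60 over P7 for each of the 7 measured genes (symbols) as reported and under 9 other settings of floor, probe set and scaling. Dashed lines mark 2-fold; Acta2 stays beyond it on the higher side in every setting, Tpm1 falls to 0.93 with the dimmest probe set, and Tagln reaches -2.23 without a floor.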

How the data were processed

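Total RNA of pooled C57/BL6 lenses was labelled with biotin, and 1 array per age was hybridised, per the labels' protocols. The deposited values are intensities on a linear scale, made with MAS5 per the submitters' processing notes, and their trimmed mean (2% left out at each end) was 500.0 on both arrays. For MAS5, no version, scaling setting or detection call was given in the sources used here. Precision is limited by the number of arrays.

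Of 45101 probe sets, 34958 had 1 gene symbol in the platform annotation, 932 several and 9211 none. Symbols were updated by gene number to RefSeq (34754 matched). The floor was to come from at least 100 chemoreceptor probe sets. As 86 were named, the median of all values was used. The brightest probe set by mean log2 intensity stood for a gene, which was called higher or lower from 2-fold on. No test is possible with 1 array per age. Named genes are all members, the 2 highest and 2 lowest of each pathway list, and defining markers. Srf, Mrtfa, Mrtfb, Oca2 and some other list genes (Cald1, Prkg1, Mylk, the 6 unmeasured contractile genes, Myh9, Myh10, Myl12a, Myl12b, Tmod1, Fn1 and Vim) were named after their values were seen. So were the markers Gja1, Gja3, Foxe3, Pdgfra, Col1a2, Fbln1, Dcn, Lum, Dpt and Slc45a2. Members, lists and motifs were chosen with earlier results of these data known. Calculations used Python 3.11.15, pandas 2.3.3 and statsmodels 0.14.6, and were tested on simulated data. Alternatives were other floors, a pseudocount of 16, other probe sets, 3 other scalings and fold limits of 1.5 and 4.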

Additional observations from a re-analysis of the deposited data

How the results depend on the processing

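Acta2 was at least 2-fold higher at P60 in all 9 alternative settings of floor, probe set and scaling, with log2 ratios from 1.60 to 3.61. The lowest value is the bound of its second probe set, and the median of its measured probe sets gave 2.58. Tpm1 kept its direction with 0.93 to 1.24, so that with the dimmest probe sets 1 member was 2-fold higher instead of 2, and at a limit of 4-fold also 1. For 2-fold lower members the count was 1 instead of 0 without a floor (Tagln at -2.23, from values that lie near or under the floor) and 1 at a limit of 1.5-fold (Tpm3). Tagln was not measured with a floor at the receptor 95th percentile or at 200, nor after quantile normalization. Tpm2 turned to 0.59 with the dimmest probe set and without probe sets of the s, x and a suffixes. The median of the measured members ranged from 0.22 to 0.53. Tpm3 ranged from -0.88 to -0.49, Myl9 from 0.45 to 0.53 and Tpm4 from 0.43 to 0.50. Over all genes 2272 were higher and 2930 lower without a floor, where 18194 genes are counted, 2960 and 2622 at 1.5-fold, and 272 and 192 at 4-fold, against 1494 and 1230 as reported. Of the list medians, with the dimmest probe sets that of lens epithelium was -0.11, that of mesenchymal transition genes -0.18 and that of fibroblast markers 0.29. With a floor at 200 the pericyte median was 0.55 and the fibroblast median 1.89, and without a floor the vascular endothelial median was -2.48. No paired analysis was possible because each age has 1 array. No replicate could be left out for the same reason, and differences between animals or pools cannot be sized from these data.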
